A study of Mus musculus with 27 samples.

Results

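The cyclic nucleotide phosphodiesterase genes Pde3a, Pde3b, Pde4a, Pde4b, Pde4c, Pde4d, Pde7a, Pde7b, Pde8a and Pde10a were followed through 27 RNA-seq samples of C2C12 cells. They are the 10 of 24825 gene rows in each file whose symbol was on a list of 10 phosphodiesterase genes. The list leaves out other phosphodiesterase genes of the files, and the rule itself uses no measured value. C2C12 is an established mouse myoblast line. The control cells carried a retroviral control vector, and the others carried, by the same route, the transcription factor NFIA in full length or its Δpro#3 mutant, which lacks the C-terminal end and is called the mutant here. Each of the 3 cell types was sampled at day 0, at day 7 of differentiation, and at day 7 after 4 h with 10 µM forskolin, with 3 samples in each of the 9 groups. All groups at day 7 had gone through the same adipogenic medium, which held isobutylmethylxanthine (IBMX, an inhibitor of most phosphodiesterases), dexamethasone and indomethacin at first, and insulin, T3 and rosiglitazone throughout. The cells are 1 line with forced expression of each construct, and the labels do not say whether the 3 samples of a group were separate cultures, so the p-values measure the spread between these samples, which may be technical.

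Phosphodiesterases hydrolyse cAMP and cGMP and so end the signal that adenylyl cyclases start. Forskolin activates adenylyl cyclase directly, without a receptor, and the cAMP it raises activates protein kinase A and, through it, the transcription factor CREB. In fat cells, cAMP drives lipolysis and the thermogenic program, and insulin limits lipolysis in part through PDE3B. Some short forms of PDE4B and PDE4D are known as products of cAMP-induced transcription. PDE4, PDE7 and PDE8 hydrolyse cAMP, whereas PDE3 and PDE10A take both nucleotides, and PDE8 is known for its insensitivity to IBMX.

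Sequencing depth lay between 9567769 and 27230965 fragments a sample (median 17707223). Levels are given in FPKM (fragments mapped to a gene, scaled by its length and by the depth of the sample), so they can be compared between genes per length. Nfia ranged over the 3 samples from 0.175 to 7.35 FPKM in control cells at day 0, where 1 sample stood above the other 2, and from 0.0885 to 0.253 FPKM in control cells at day 7. It was 225 to 250.2, 457 to 528 and 497 to 594 FPKM with full-length NFIA at day 0, at day 7 and after forskolin, and 397 to 423, 374 to 480.5 and 262 to 344 FPKM with the mutant. The sum of 10 myotube markers was 12270.5 to 14332 FPKM in control cells at day 7, 2037 to 2869 FPKM with full-length NFIA and 13484 to 14459 FPKM with the mutant. The sum of 10 adipocyte markers was 363 to 401, 13675 to 15185 and 639 to 2068 FPKM in the same order. The sum of 3 myoblast markers was 675 to 782, 223 to 286 and 958 to 1082 FPKM. The sum of 4 macrophage markers, of which 1 had a mean of 1 FPKM or more in each group, was 15.2 to 15.9, 9.72 to 11.01 and 7.76 to 9.81 FPKM at day 7 and up to 26.6 FPKM in control cells with forskolin, and its part in the results was not tested. The sum of 3 endothelial markers was at most 1.39 FPKM in any sample.

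In mm9, the genome build of the files, the 2 PDE3 genes lie at chr6:141197790-141447872 (Pde3a) and chr7:121558795-121682765 (Pde3b). The 4 PDE4 genes lie at chr9:20970158-21017692 (Pde4a), chr4:101760148-102279864 (Pde4b), chr8:73247619-73275085 (Pde4c) and chr13:109240142-110743669 (Pde4d). The annotation also holds a short record named Pde4d just downstream, at chr13:110744317-110746171. The remaining genes lie at chr3:19123108-19211322 (Pde7a, minus strand), chr10:20117810-20444884 (Pde7b, minus strand), chr7:88358482-88479419 (Pde8a) and chr17:8718237-9179513 (Pde10a), and those without a strand named are on the plus strand. The values are per gene, over all its exons, so they do not tell apart the several start sites that most of these genes have.

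Most of the summed FPKM of the 10 genes came from Pde3b, Pde4b, Pde4d, Pde7a and Pde8a, whereas Pde3a and Pde4c were scarce in all 9 groups. The 10 genes summed to 43.03 ± 0.651 FPKM (SD, n = 3) in control cells at day 0, 29.2 ± 1.39 FPKM at day 7 and 68.6 ± 2.32 FPKM at day 7 with forskolin. With full-length NFIA the sums were 41.8 ± 0.958, 42.8 ± 1.40 and 89.4 ± 7.84 FPKM, and with the mutant they were 50.1 ± 0.560, 34.4 ± 1.04 and 66.6 ± 3.80 FPKM. In each cell type, the 3 samples with forskolin lay above the 3 without it at day 7.

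The makeup of the sum is given as a description of the 10 genes, with no test and without the other phosphodiesterase genes of the files. PDE3 genes, of which nearly all was Pde3b, made up 17.5% ± 0.546 (SD, n = 3) of the sum in control cells, 17.9% ± 0.826 with full-length NFIA and 33.2% ± 0.500 with the mutant at day 0. At day 7 they made up 19.98% ± 1.14 in control cells, 56.6% ± 1.07 with full-length NFIA and 18.7% ± 0.394 with the mutant. PDE4 genes made up 35.2% ± 0.599, 35.98% ± 0.245 and 27.3% ± 1.37 at day 0 and 39.2% ± 0.823, 16.99% ± 1.13 and 29.1% ± 1.35 at day 7 in the same order. With forskolin, the PDE4 share was 56.5% ± 0.987 in control cells, 28.3% ± 1.30 with full-length NFIA and 52.4% ± 1.39 with the mutant. The PDE3 share with full-length NFIA stood at 54.1% ± 0.866 with forskolin, so at day 7 PDE3 was the family with the highest summed level in these cells with and without forskolin, and PDE4 in the other 2 cell types. At day 0 the highest of these families, within the 10 genes, was PDE4 in control and full-length NFIA cells and PDE3 with the mutant.

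**Figure D1:**
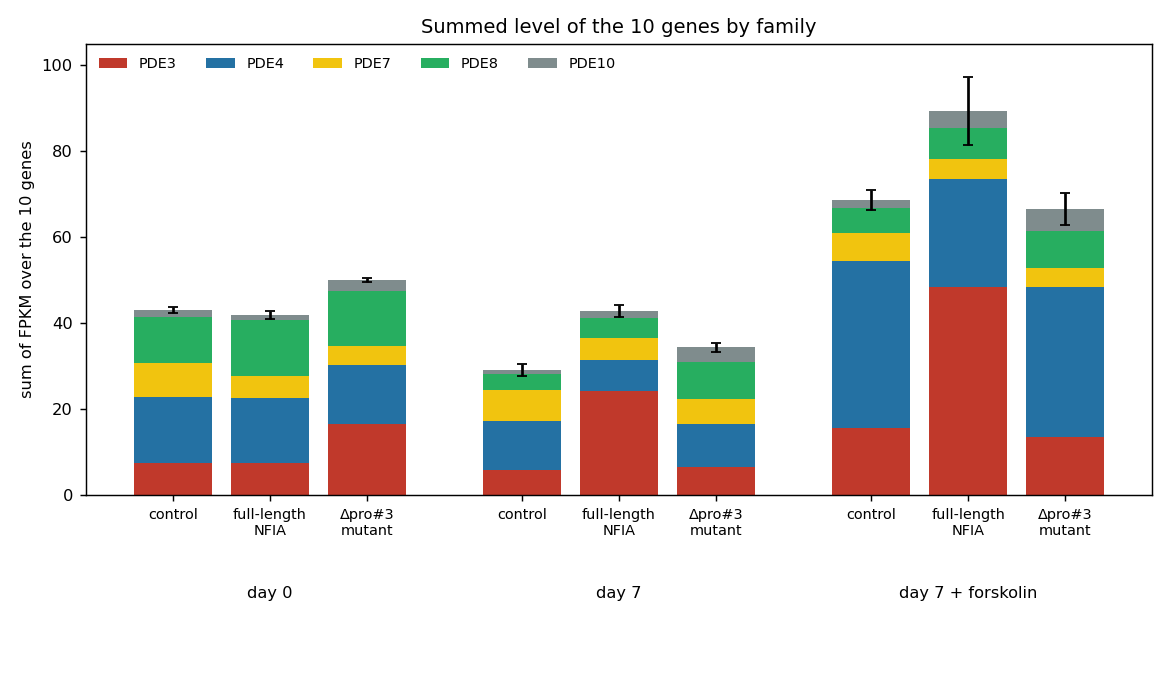
Sum of FPKM over the 10 phosphodiesterase genes in the 9 groups, stacked by family (mean of 3 samples, error bars the SD of the whole sum). The PDE3 part is the tallest with full-length NFIA and forskolin, at 48.4 FPKM, and the PDE4 part is the tallest in control cells with forskolin, at 38.8 FPKM.

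**Figure D2:**
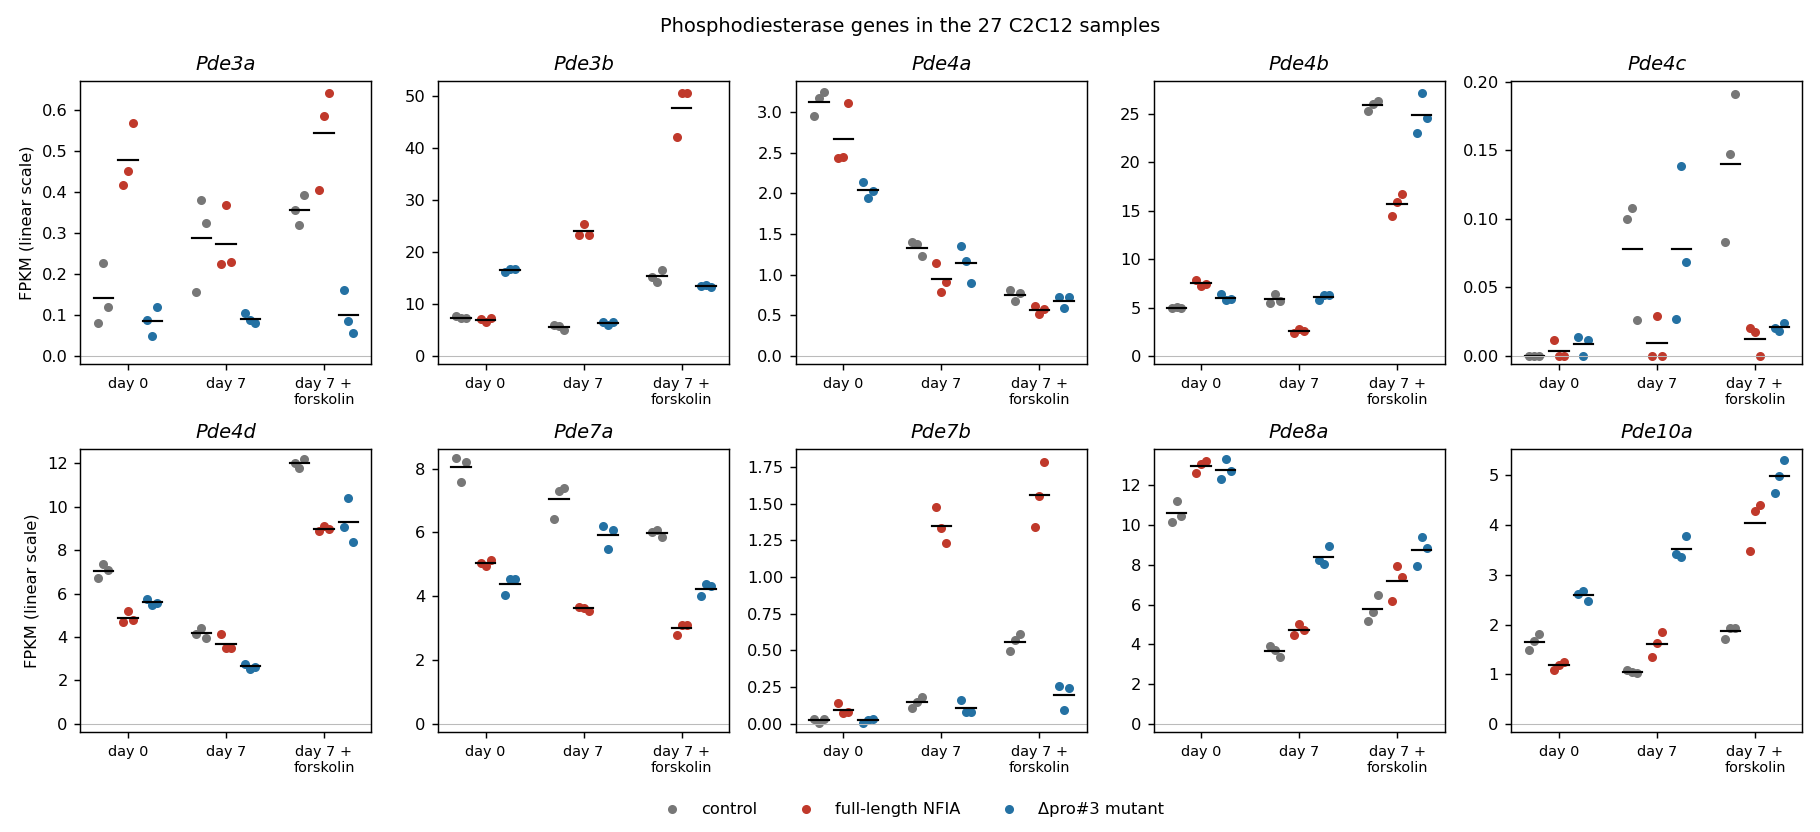
FPKM of each of the 10 genes in all 27 samples (linear axes, 1 point per sample, bars the mean of 3), by time, treatment and cell type. Pde3b reaches 23.99 FPKM at day 7 and 47.8 FPKM with forskolin in cells with full-length NFIA, Pde4b and Pde4d are highest with forskolin in each cell type, and Pde3a and Pde4c stay below 1 FPKM.

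Forskolin was the treatment that asked how the cells answered a rise in cAMP at day 7. In all 3 cell types, Pde3b, Pde4b and Pde4d rose after 4 h, and with full-length NFIA Pde10a rose too. A gene was called changed where the adjusted p of limma was under 0.05 and the change was more than 1.5-fold in FPKM + 1, a distance of 0.58 on the log2 scale. In control cells 3 of the 8 genes tested rose and none fell, where 2.2% of all genes tested rose and 1.94% fell. With full-length NFIA 4 of 8 rose (3.96% of all genes rose and 9.56% fell), and with the mutant 3 of 8 rose (3.32% rose and 4.12% fell). Of the genes called with full-length NFIA, 29.3% rose, against 47.1% after median-ratio scaling between samples, which shifted the median of all genes by 0.10 (log2). The median log2 change of the 8 genes was 0.51 in control cells, 0.73 with full-length NFIA and 0.26 with the mutant, and that of all genes was -0.047, -0.15 and -0.059.

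Pde4b, which encodes a cAMP-specific phosphodiesterase of the rolipram-sensitive family, had the largest change with forskolin of the 8 genes tested. It was at 5.52, 6.45 and 5.64 FPKM in control cells without forskolin and at 25.3, 26.04 and 26.4 FPKM with it. All treated samples were above all untreated ones, by a ratio of the means of 4.41 (log2 change 1.97 ± 0.073 (SE), adjusted p = 1.80e-11). With full-length NFIA the samples were at 2.42, 2.82 and 2.61 FPKM before and 14.4, 15.9 and 16.7 FPKM after forskolin, the lowest start and the lowest end of the 3 cell types. The ratio was 5.98 (log2 change 2.20 ± 0.073 (SE), adjusted p = 9.55e-13). In cells with the mutant it went from 5.76, 6.34 and 6.32 to 23.1, 27.2 and 24.5 FPKM, again without overlap, by a ratio of 4.06 (log2 change 1.86 ± 0.073 (SE), adjusted p = 1.60e-11). Pde4b was the gene of the 10 that passed the study's 3-fold threshold, counted in FPKM + 1, in this comparison, in control cells (0.392% of all genes passed it), with full-length NFIA (0.743%) and with the mutant (0.588%).

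Pde4d, the other PDE4 gene above 2 FPKM in all groups, rose in the same comparisons. The control samples went from 4.15, 4.41 and 3.96 FPKM to 11.98, 11.8 and 12.2 FPKM (log2 change 1.33 ± 0.071 (SE), adjusted p = 1.34e-09). The samples with full-length NFIA went from 4.12, 3.49 and 3.48 to 8.86, 9.13 and 8.97 FPKM (log2 change 1.09 ± 0.071 (SE), adjusted p = 3.37e-09). Those with the mutant started lowest, at 2.77, 2.54 and 2.62 FPKM, and reached 9.04, 10.4 and 8.39 FPKM (log2 change 1.49 ± 0.071 (SE), adjusted p = 1.38e-10). Treated and untreated samples did not overlap in any cell type. Pde4a, a further cAMP-specific gene, was not called, and its changes lay below 0. In control cells it was at 1.40, 1.37 and 1.22 FPKM without and 0.808, 0.675 and 0.776 FPKM with forskolin (log2 change -0.41 ± 0.087 (SE), adjusted p = 0.0027), and the changes were -0.31 ± 0.087 and -0.35 ± 0.087 (SE) with full-length NFIA and the mutant. With a pseudocount of 0.1 in place of 1 it passed the threshold in all 3 cell types (-0.75, -0.64 and -0.66), and likewise by limma-voom on the fragments.

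Pde3b, whose product is activated by insulin signalling in adipocytes and lowers cAMP there, rose from 5.90, 5.80 and 4.94 FPKM to 15.2, 14.2 and 16.5 FPKM in control cells (log2 change 1.32 ± 0.076 (SE), adjusted p = 2.57e-09). It rose from 23.3, 25.3 and 23.4 to 42.2, 50.7 and 50.6 FPKM with full-length NFIA (log2 change 0.96 ± 0.076 (SE), adjusted p = 3.00e-08). With the mutant it rose from 6.52, 6.06 and 6.47 to 13.4, 13.6 and 13.2 FPKM (log2 change 0.97 ± 0.076 (SE), adjusted p = 5.76e-08). The untreated samples with full-length NFIA were thus already above every treated sample of the other cell types. The level was highest in the treated samples with full-length NFIA, of which replicate 1 was the lowest.

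Of the genes of the PDE7, PDE8 and PDE10 families, Pde10a was called in 1 cell type. Pde10a, a dual-specificity enzyme best known from the striatum, rose with full-length NFIA from 1.34, 1.63 and 1.85 to 3.47, 4.27 and 4.41 FPKM (log2 change 0.95 ± 0.085 (SE), adjusted p = 1.24e-07). In control cells it was at 1.09, 1.04 and 1.02 FPKM without and 1.72, 1.93 and 1.93 FPKM with forskolin (log2 change 0.48 ± 0.085 (SE), adjusted p = 6.15e-04), and in cells with the mutant at 3.41, 3.37 and 3.77 and 4.65, 4.99 and 5.32 FPKM (log2 change 0.41 ± 0.085 (SE), adjusted p = 0.00143). The samples did not overlap in these cell types either, but the changes were below 1.5-fold in FPKM + 1. Pde8a, for a cAMP-specific enzyme of high affinity, was at 3.67 ± 0.304 and 5.76 ± 0.656 FPKM (SD, n = 3) without and with forskolin in control cells (log2 change 0.53 ± 0.090 (SE), adjusted p = 4.11e-04). The changes of Pde8a were 0.51 ± 0.090 and 0.048 ± 0.090 (SE) with full-length NFIA and the mutant. Leaving out control day 7 forskolin replicate 1 brought the change in control cells to 0.59, and leaving out NFIA day 7 forskolin replicate 1 brought that with full-length NFIA to 0.60, both past the threshold. With median-ratio scaling the latter was 0.62, also past it, which made 5 calls in place of 4. Pde7a, a cAMP-specific gene, had changes of -0.20 ± 0.063, -0.21 ± 0.063 and -0.40 ± 0.063 (SE) in control, full-length NFIA and mutant cells and was not called in any.

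The pseudocount of 1 holds back changes of genes near 1 FPKM. With a pseudocount of 0.1, and likewise by limma-voom on the fragments, 7 in place of 3 of the 8 genes were called in control cells, where among all genes 3.01% higher and 3.27% lower were called with that pseudocount and 2.997% higher and 3.56% lower by limma-voom. Of the 7, Pde4a was lower and Pde7b, Pde8a and Pde10a higher in addition to the 3 above. For Pde7b, at 0.107, 0.151 and 0.185 FPKM without and 0.494, 0.575 and 0.612 FPKM with forskolin in control cells, the change was 0.44 ± 0.082 (SE) with a pseudocount of 1 and 1.42 with a pseudocount of 0.1.

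**Figure D3:**
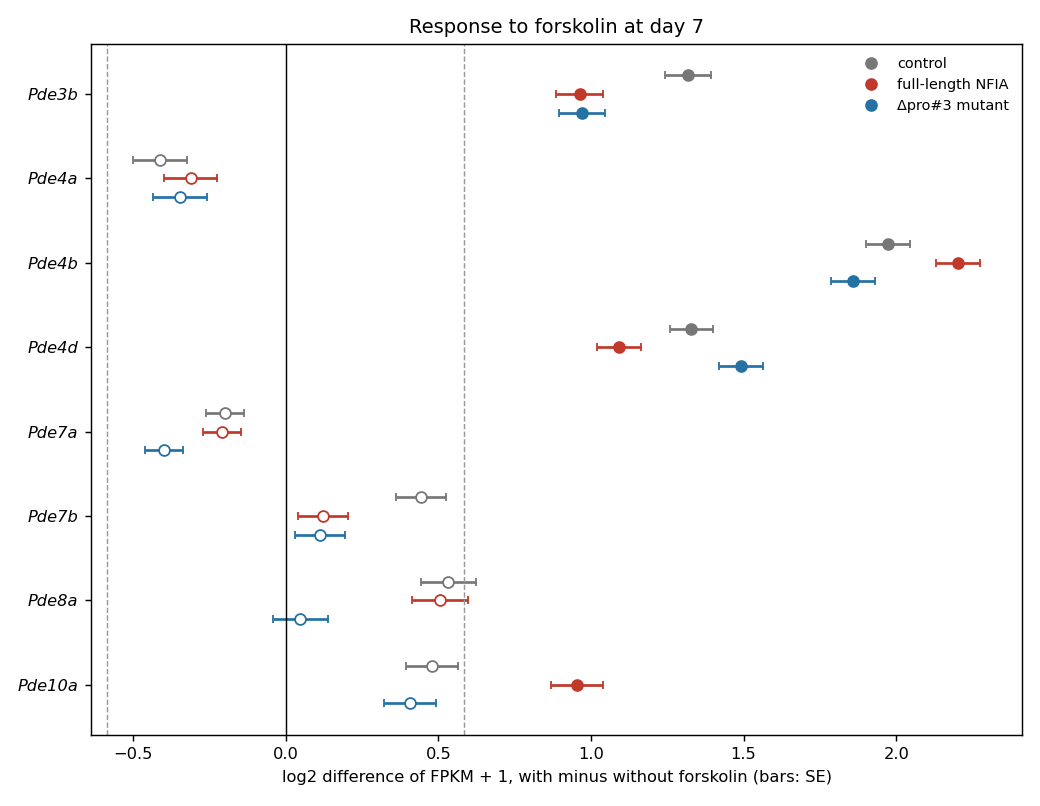
Log2 change of FPKM + 1 with forskolin at day 7 for the 8 genes tested, by cell type (points the estimate of limma, bars its SE, filled where called, dashed lines the 1.5-fold limit). Pde4b lies furthest to the right in each cell type, at 1.97, 2.20 and 1.86 in control, full-length NFIA and mutant cells, and Pde4a and Pde7a lie left of 0.

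Promoter windows of 250 bases before to 50 after an annotated start were at hand for 7 of the 10 genes (13 windows, RefSeq, build GRCm38.p6), and not for Pde3a, Pde3b and Pde7a. They were searched on both strands for the cAMP response element (CRE) TGACGTCA, for its shorter form TGACG, for the palindromic NFI consensus and for the short NFI site TTGGC. None of the 13 windows held the whole CRE, which 1.79% of 32851 windows of the same length held, or the palindromic NFI consensus, which 0.0365% held. The short CRE form was in 3 of 13 windows (20.8% of all windows) and the short NFI site in 6 of 13 (46.7% of all windows). The short CRE form overlaps the whole CRE. The first window of Pde4b, the single window of Pde4d and that of Pde8a are printed because Pde4b and Pde4d rose together with forskolin and Pde8a holds the short CRE form without having been called. Pde8a was short of the 1.5-fold limit in control cells (0.53 ± 0.090, SE), where treated and untreated samples did not overlap. It was called there with a pseudocount of 0.1 and by limma-voom. Capitals mark the short CRE form (TGACG or, on the other strand, CGTCA) and the short NFI site (TTGGC or GCCAA).
Pde4b, chr4:102421305-102421604, plus strand: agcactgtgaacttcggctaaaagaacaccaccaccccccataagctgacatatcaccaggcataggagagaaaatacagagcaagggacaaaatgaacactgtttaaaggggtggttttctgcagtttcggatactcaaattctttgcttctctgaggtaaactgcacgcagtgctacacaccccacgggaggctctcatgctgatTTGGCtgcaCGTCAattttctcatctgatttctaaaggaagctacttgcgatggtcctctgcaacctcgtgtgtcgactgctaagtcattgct
Pde4d, chr13:108653927-108654226, plus strand: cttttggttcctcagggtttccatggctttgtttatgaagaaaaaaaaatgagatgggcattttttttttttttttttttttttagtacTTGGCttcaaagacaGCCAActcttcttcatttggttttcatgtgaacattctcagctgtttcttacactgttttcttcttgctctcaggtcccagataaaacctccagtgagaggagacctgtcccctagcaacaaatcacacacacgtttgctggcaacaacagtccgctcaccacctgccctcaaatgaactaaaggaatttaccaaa
Pde8a, chr7:81213015-81213314, plus strand: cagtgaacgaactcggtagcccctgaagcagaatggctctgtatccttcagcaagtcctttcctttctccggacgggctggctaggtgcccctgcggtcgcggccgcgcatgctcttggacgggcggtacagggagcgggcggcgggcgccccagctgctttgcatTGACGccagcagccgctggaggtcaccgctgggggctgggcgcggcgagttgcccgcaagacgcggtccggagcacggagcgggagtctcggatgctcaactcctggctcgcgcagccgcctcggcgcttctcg
In the Pde4b window, the short NFI site begins at position -43 and the short CRE form at position -34, counted from the start site as 0. The other 3 windows of Pde4b held no short CRE form, and the window of Pde4d held 2 short NFI sites, at -161 and -146. Beside these, the second of the 3 windows of Pde4a held the short CRE form at -50 and that of Pde8a held it at -84. These are matches of letters, and FPKM per gene does not show which start was used.

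Whether the response to forskolin differed between cell types was tested on the difference itself. None of the 8 genes was called in any of the 3 differences by limma. Counts by p alone are given below without a share of all genes, since the shares are for called genes. The difference between full-length NFIA and control cells had an unadjusted p under 0.05 for 5 of 8 genes and an adjusted p under 0.05 for 3, and limma-voom called 1, the scarce Pde7b. That gene is counted here at each step, but it passed the filter only through the samples with full-length NFIA, so its value by limma-voom is a description (-1.69). Among all genes, limma called 3.28% higher and 6.74% lower and limma-voom 3.51% higher and 9.33% lower. Of the genes called by limma, 32.8% were higher, and 43.7% after median-ratio scaling. That between the mutant and control cells had an unadjusted p under 0.05 for 4 and an adjusted p under 0.05 for 1, and limma-voom called 0 (among all genes, limma called 1.11% higher and 1.22% lower and limma-voom 1.14% higher and 1.76% lower). That between the mutant and full-length NFIA had 5 and 4 in the same order, and limma-voom called 1, Pde10a (among all genes, limma called 4.29% higher and 2.25% lower and limma-voom 5.87% higher and 2.56% lower, with 65.6% of the calls of limma higher, and 51.6% after scaling).

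Pde10a had an adjusted p under 0.05 in both differences that involve full-length NFIA. Its response was larger with full-length NFIA than in control cells by 0.48 ± 0.12 on the log2 scale (SE, adjusted p = 0.00696) and that of the mutant was below that of full-length NFIA (-0.55 ± 0.12, adjusted p = 0.0038). The latter passed the 1.5-fold limit without NFIA day 7 replicate 3 (-0.62), without NFIA day 7 forskolin replicate 1 (-0.63), without mutant day 7 forskolin replicate 3 (-0.59) with median-ratio scaling (-0.63), with a pseudocount of 0.1 (-0.80) and by limma-voom (-0.82). For Pde4b, the difference from control cells was 0.23 ± 0.10 (adjusted p = 0.101) with full-length NFIA and -0.11 ± 0.10 (adjusted p = 0.609) with the mutant. Neither was called. For Pde3b, the difference from control cells was -0.36 ± 0.11 (adjusted p = 0.019) with full-length NFIA and -0.35 ± 0.11 (adjusted p = 0.0758) with the mutant, and neither was called. For Pde8a, the difference between the mutant and control cells was -0.48 ± 0.13 (adjusted p = 0.0374). For Pde4d, the difference between the mutant and full-length NFIA was 0.40 ± 0.10 (adjusted p = 0.00915). Pde4b and Pde8a were the other genes with an adjusted p under 0.05 in that difference, with the smaller response in the mutant, and neither passed the 1.5-fold limit.

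The other genes of cAMP signalling were taken from a list of 60 genes, of which 40 were tested at day 7. The list was chosen with earlier results of these data known, so its counts are a description. Forskolin raised 4 and lowered 1 of the 40 in control cells, raised 10 and lowered 3 with full-length NFIA, and raised 6 and lowered 3 with the mutant, beside the shares of all genes given above. Most of these were among 8 known targets of CREB, of which 4, 8 and 5 rose in the 3 cell types, with a median log2 change of 0.59, 1.75 and 0.78. Nr4a3, an orphan nuclear receptor induced early by cAMP, went from 5.15 to 10.9 FPKM, log2 change 0.95 ± 0.10 (SE) in control cells. With full-length NFIA it went from 1.17 to 48.4 FPKM, log2 change 4.51 ± 0.10 (SE). Sik1, a kinase that restrains the coactivators of CREB, went from 26.99 to 57.9 FPKM, log2 change 1.07 ± 0.077 (SE) in control cells and from 14.3 to 40.4 FPKM, log2 change 1.44 ± 0.077 (SE) with the mutant.

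The difference in response between cell types was tested for these targets too. Their list was chosen with earlier results of these data known, so the counts beside the shares are a description. The response of 7 of the 8 CREB targets was larger with full-length NFIA than in control cells (3.28% of all genes), Nr4a3 by 3.56 ± 0.14 (SE), Nr4a2 by 2.52 ± 0.15 and Nr4a1 by 2.45 ± 0.12. With the mutant it was larger than in control cells for 1 of them (1.11% of all genes) and smaller than with the full-length protein for 6 (2.25%). The 4 other phosphodiesterase genes tested, among them Pde1b, had no call in control cells or with full-length NFIA. With the mutant Pde1b, a calcium-activated enzyme, fell from 2.64 to 0.681 FPKM, log2 change -1.11 ± 0.080 (SE). Of the anchoring proteins, Akap6, which holds protein kinase A and PDE4D3 at the nuclear envelope of muscle cells, fell in all 3 cell types, from 12.6 to 5.61 FPKM, log2 change -1.04 ± 0.077 (SE) with the mutant.

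At day 0, before differentiation, the question was how each construct alone altered the genes. No gene of the 10 was called with full-length NFIA against control cells, whereas Pde3b was higher and Pde7a lower with the mutant. With full-length NFIA, 0 of 7 genes tested were called by limma, against 13.4% higher and 11% lower among all genes tested. Limma-voom called 2, against 16.3% higher and 13.2% lower. The unadjusted p of limma was under 0.05 for 6 of the 7, a count with no share of all genes beside it. With the mutant, 1 was higher and 1 lower (7.26% and 6.73% of all genes), and with limma-voom or a pseudocount of 0.1 the calls were 4 in all, the further ones being Pde4a and Pde10a, where limma-voom called 10.1% higher and 8.29% lower among all genes. Against full-length NFIA, 2 were higher with the mutant and none lower (6.96% and 8.66% of all genes). Nfia was at 397 to 423 FPKM with the mutant and 225 to 250.2 FPKM with full-length NFIA at day 0. In this comparison, as in that with forskolin, the construct and its level cannot be told apart. The comparisons of a time point share their samples, so each is given with its own values. The sum of the myotube markers was 1160.1 to 1255 FPKM in control cells, 6.99 to 9.05 FPKM with full-length NFIA and 74.8 to 82.5 FPKM with the mutant at day 0. That of the adipocyte markers was 43.4 to 52.6, 437 to 464 and 323 to 339 FPKM, that of the myoblast markers 512 to 522, 129.96 to 139 and 351 to 361 FPKM, and that of 5 markers of proliferating cells 107 to 109, 294 to 299.9 and 126 to 136 FPKM, and their part in these results was not tested. In bulk samples, less RNA of a gene in each cell and fewer cells that hold it cannot be told apart.

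Pde3b was at 7.61, 7.31 and 7.29 FPKM in control cells, 7.21, 6.53 and 7.32 FPKM with full-length NFIA and 16.1, 16.7 and 16.8 FPKM with the mutant at day 0. The mutant samples stood above all the others, which overlapped. The mutant was higher than control cells by a ratio of 2.24 (log2 change 1.06 ± 0.044 (SE), adjusted p = 6.71e-09) and higher than full-length NFIA by 2.36 (log2 change 1.13 ± 0.044 (SE), adjusted p = 4.12e-09). Between full-length NFIA and control cells the change was -0.069 ± 0.044 (adjusted p = 0.18).

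Pde7a was at 8.34, 7.59 and 8.22 FPKM in control cells, 5.03, 4.95 and 5.15 FPKM with full-length NFIA and 4.03, 4.55 and 4.54 FPKM with the mutant. Control samples were above all the others. The mutant was lower by log2 change -0.75 ± 0.051 (SE), adjusted p = 3.68e-07. With full-length NFIA the change was -0.58 ± 0.051 (adjusted p = 1.62e-06), just short of the 1.5-fold limit, and it passed it without control day 0 replicate 2 (-0.62), without NFIA day 0 replicate 3 (-0.59), with a pseudocount of 0.1 (-0.66) and by limma-voom (-0.68).

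Pde10a was at 1.48, 1.67 and 1.81 FPKM in control cells, 1.08, 1.19 and 1.25 FPKM with full-length NFIA and 2.62, 2.67 and 2.47 FPKM with the mutant, so that the 3 cell types did not overlap. The mutant was called higher against full-length NFIA (log2 change 0.72 ± 0.061 (SE), adjusted p = 1.90e-06), and not against control cells (log2 change 0.44 ± 0.061 (SE), adjusted p = 1.16e-04). Pde4b was at 4.99, 5.09 and 4.92 FPKM in control cells and 7.80, 7.23 and 7.46 FPKM with full-length NFIA, without overlap and short of the limit (log2 change 0.50 ± 0.044 (SE), adjusted p = 1.63e-06). By limma-voom its change of 0.59 was called. The remaining changes with full-length NFIA were -0.18 ± 0.072 for Pde4a, -0.45 ± 0.048 for Pde4d and 0.27 ± 0.044 for Pde8a (SE). With the mutant they were -0.44 ± 0.072, -0.28 ± 0.048 and 0.25 ± 0.044 for the same genes and 0.23 ± 0.044 for Pde4b.

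By day 7 the cells with full-length NFIA had high Pde3b and low Pde4b and Pde7a, and those with the mutant had high Pde8a and Pde10a. Against control cells, full-length NFIA had 2 of 8 genes higher and 2 lower (16.8% and 18.8% of all genes tested). Of the 2 higher genes, Pde7b was tested only because these samples lifted its mean over the filter, so the count of calls that do not rest on the filter is 3. The mutant had 2 higher and none lower (6.94% and 5.79%). Between them, 3 were higher with the mutant and 2 lower (12.8% and 13.3%), Pde7b again among the lower. Of all genes called with full-length NFIA against control cells, 47.2% were higher, and 54.9% after median-ratio scaling. The median log2 change of the 8 genes against control cells was 0.079 for full-length NFIA and 0.0033 for the mutant, and -0.080 and -0.037 over all genes. The 8 include Pde7b (1.03 with full-length NFIA), so the median with full-length NFIA rests in part on the filter. It is not read against that of all genes. The adipocyte markers given above differed between the 3 cell types, ranging widely among the 3 mutant samples, and the myotube markers were lower with full-length NFIA and overlapped between the mutant and control cells, and their part in these results was not tested.

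Pde3b was at 5.90, 5.80 and 4.94 FPKM in control cells, 23.3, 25.3 and 23.4 FPKM with full-length NFIA and 6.52, 6.06 and 6.47 FPKM with the mutant. Full-length NFIA stood far above the rest, by a ratio of 4.33 to control cells (log2 change 1.93 ± 0.072 (SE), adjusted p = 4.87e-09) and of 3.78 to the mutant (log2 change -1.76 ± 0.072 (SE), adjusted p = 1.45e-08, mutant minus full-length NFIA). The mutant and control samples did not overlap, but the change of 0.17 ± 0.072 had an adjusted p of 0.0736. Pde3b was the gene of the 10 past 3-fold in the comparison of full-length NFIA with control cells (8.17% of all genes) and of the mutant with full-length NFIA (6.3%).

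Pde4b was at 5.52, 6.45 and 5.64 FPKM in control cells, 2.42, 2.82 and 2.61 FPKM with full-length NFIA and 5.76, 6.34 and 6.32 FPKM with the mutant. The samples with full-length NFIA were below all the others, while mutant and control samples overlapped. Full-length NFIA was lower than control cells (log2 change -0.92 ± 0.077 (SE), adjusted p = 1.83e-06), the mutant was higher than full-length NFIA (log2 change 0.98 ± 0.077 (SE), adjusted p = 1.71e-06), and the mutant against control cells gave 0.057 ± 0.077 (adjusted p = 0.566).

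Pde7a was at 6.43, 7.29 and 7.38 FPKM in control cells, 3.67, 3.64 and 3.55 FPKM with full-length NFIA and 6.19, 5.47 and 6.09 FPKM with the mutant. It was lower with full-length NFIA (log2 change -0.80 ± 0.071 (SE), adjusted p = 3.16e-06), and the change of -0.22 ± 0.071 with the mutant was below the limit (adjusted p = 0.0295). Mutant against full-length NFIA gave 0.58 ± 0.071, just inside the limit, and passed it with a pseudocount of 0.1 (0.69), by limma-voom (0.70), without NFIA day 7 replicate 1 (0.59) and without mutant day 7 replicate 2 (0.63).

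Pde8a and Pde10a set the mutant apart. Pde8a was at 3.94, 3.72 and 3.34 FPKM in control cells, 4.48, 5.03 and 4.70 FPKM with full-length NFIA and 8.24, 8.02 and 8.92 FPKM with the mutant. The 3 cell types did not overlap, and the mutant was higher than control cells (log2 change 1.01 ± 0.074 (SE), adjusted p = 4.97e-06) and than full-length NFIA (log2 change 0.71 ± 0.074 (SE), adjusted p = 1.39e-05). Full-length NFIA against control cells gave 0.30 ± 0.074 (adjusted p = 0.00405). Pde10a was at 1.09, 1.04 and 1.02 FPKM in control cells, 1.34, 1.63 and 1.85 FPKM with full-length NFIA and 3.41, 3.37 and 3.77 FPKM with the mutant, again without overlap. The mutant was higher than control cells by a ratio of 3.35 (log2 change 1.14 ± 0.087 (SE), adjusted p = 6.63e-06) and than full-length NFIA by 2.19 (log2 change 0.80 ± 0.087 (SE), adjusted p = 2.05e-05). The change with full-length NFIA, 0.34 ± 0.087 (adjusted p = 0.00496), was under the limit and was called by limma-voom (0.61), with 19.4% higher and 22.3% lower among all genes.

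Pde4a and Pde4d were not called with either construct. For Pde4a the changes were -0.26 ± 0.10 with full-length NFIA and -0.13 ± 0.10 with the mutant. For Pde4d they were -0.14 ± 0.076 and -0.50 ± 0.076, the latter at an adjusted p of 4.42e-04 and past the limit with a pseudocount of 0.1 (-0.64) and by limma-voom (-0.67).

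**Figure D4:**
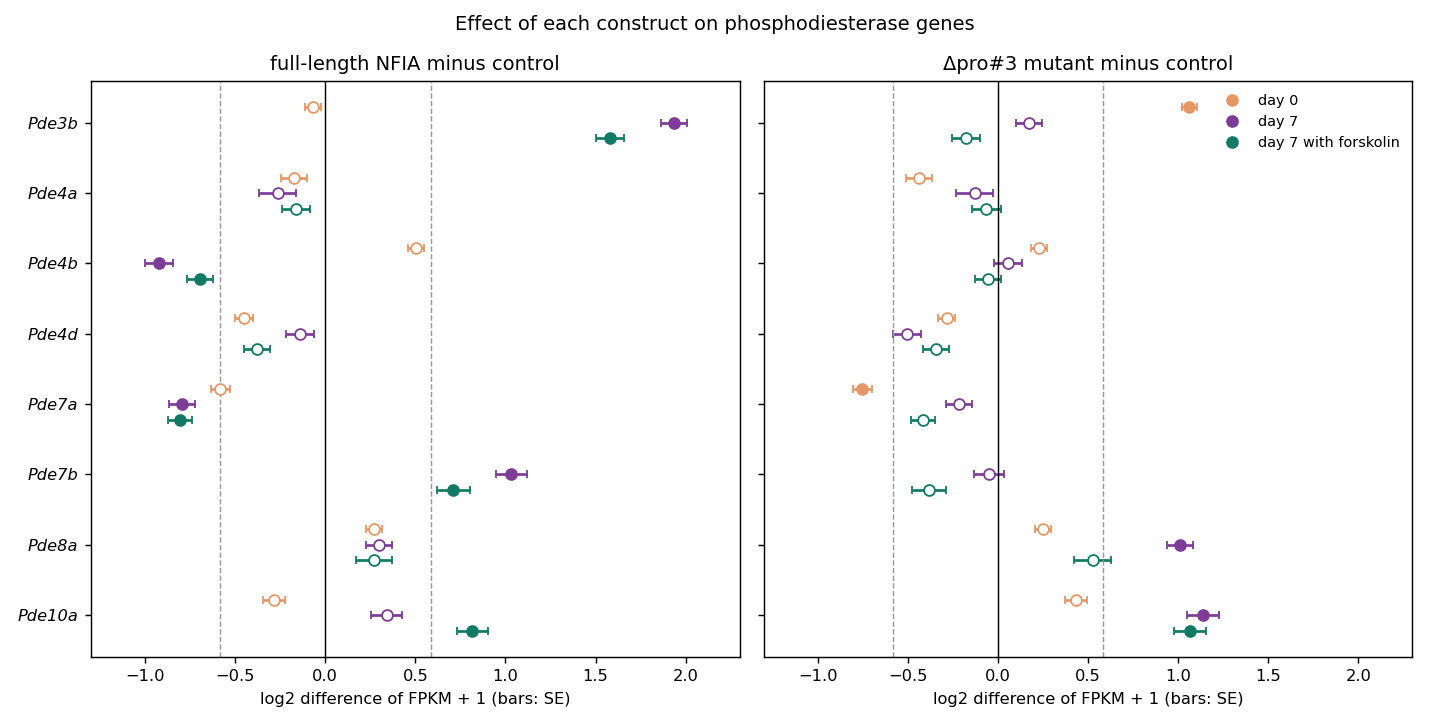
Log2 difference of FPKM + 1 between full-length NFIA and control cells (left) and between the mutant and control cells (right) at day 0, at day 7 and at day 7 with forskolin (points the estimate of limma, bars its SE, filled where called, dashed lines the 1.5-fold limit). Pde3b lies at 1.93 on the left at day 7 and at 1.06 on the right at day 0, and Pde7b has no point at day 0, where it was not tested.

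Among the 40 other genes of cAMP signalling tested at day 7, full-length NFIA had 5 higher and 11 lower than control cells and the mutant 3 higher and 4 lower, where the shares of all genes were 16.8% and 18.8% with full-length NFIA and 6.94% and 5.79% with the mutant. The lower ones with full-length NFIA included 4 of the 8 effectors of cAMP tested. Prkar2b, the regulatory subunit of protein kinase A that prevails in fat, was higher with full-length NFIA, from 18.8 to 123 FPKM, log2 change 2.65 ± 0.081 (SE). Akap12, an anchoring protein, was also higher, from 1.09 to 11.97 FPKM, log2 change 2.64 ± 0.085 (SE). Akap6 was lower, from 14.9 to 3.02 FPKM, log2 change -1.99 ± 0.060 (SE). With the mutant, Rapgef3, which encodes the cAMP sensor EPAC1, was lower, from 2.61 to 0.630 FPKM, log2 change -1.15 ± 0.092 (SE). At day 0, 38 of the 60 genes were tested, with 5 higher and 8 lower with full-length NFIA and 5 and 4 with the mutant (shares of all genes 13.4% and 11%, and 7.26% and 6.73%). The cGMP-stimulated phosphodiesterase gene Pde2a was among the higher ones with full-length NFIA, from 2.73 to 16.3 FPKM, log2 change 2.21 ± 0.049 (SE).

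With forskolin the same constructs were compared again at day 7. Full-length NFIA had 3 of 8 genes higher than control cells, Pde3b, Pde7b and Pde10a, and 2 lower, Pde4b and Pde7a (13.5% and 21% of all genes). Pde7b was tested here only through the samples with full-length NFIA. The mutant had 1 higher, Pde10a, and none lower (6.4% and 6.39% of all genes), where limma-voom and a pseudocount of 0.1 called 3, with Pde8a higher and Pde7b lower in addition (9.05% higher and 9.35% lower among all genes by limma-voom). Against full-length NFIA the mutant had 1 higher, Pde4b, and 2 lower, Pde3b and Pde7b (15.8% and 11.4%), the latter with the same limit. Of all genes called with full-length NFIA, 39.1% were higher, against 52.9% after median-ratio scaling, which shifted the median of all genes by 0.14. For the mutant against full-length NFIA these were 58.2% and 47.2%, with a shift of -0.11. With forskolin, the adipocyte markers summed to 318 to 332 FPKM in control cells, 13104 to 13831 FPKM with full-length NFIA and 558 to 924 FPKM with the mutant, and the myotube markers to 12270.4 to 14443, 1726 to 2123 and 12379.8 to 13254 FPKM, and their part in these results was not tested. Of the 40 other genes of cAMP signalling, 12 were higher and 10 lower with full-length NFIA, and 4 and 4 with the mutant (shares of all genes 13.5% and 21%, and 6.4% and 6.39%).

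Pde3b, at the FPKM given above for the treated samples, was higher with full-length NFIA than in control cells by a ratio of 3.12 (log2 change 1.58 ± 0.078 (SE), adjusted p = 1.57e-08). The mutant was lower than full-length NFIA (log2 change -1.76 ± 0.078 (SE), adjusted p = 9.94e-09), and Pde3b was again the gene past 3-fold there (6.2% of all genes). Pde10a was higher than in control cells with both constructs, by a ratio of 2.18 with full-length NFIA (log2 change 0.82 ± 0.088 (SE), adjusted p = 8.93e-06) and of 2.68 with the mutant (log2 change 1.06 ± 0.088 (SE), adjusted p = 5.13e-06). Treated control samples did not overlap with either.

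Pde4b was lower with full-length NFIA than in control cells (log2 change -0.69 ± 0.071 (SE), adjusted p = 6.07e-06) and the mutant was above full-length NFIA (log2 change 0.64 ± 0.071 (SE), adjusted p = 1.59e-05). Both calls were lost with median-ratio scaling, at -0.53 and 0.52, with no overlap between the deposited values of the samples. The latter call was also lost without NFIA day 7 forskolin replicate 1 (0.58) and without mutant day 7 forskolin replicate 2 (0.58). Pde7a was at 6.02, 6.08 and 5.86 FPKM in treated control cells, 2.79, 3.09 and 3.11 FPKM with full-length NFIA and 4.01, 4.40 and 4.31 FPKM with the mutant. It was lower with full-length NFIA (log2 change -0.81 ± 0.066 (SE), adjusted p = 9.61e-07), and the change with the mutant was -0.42 ± 0.066 (adjusted p = 4.79e-04). For Pde8a, the change of 0.53 ± 0.10 with the mutant passed the limit without control day 7 forskolin replicate 3 (0.60) or without mutant day 7 forskolin replicate 1 (0.59).

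Between day 0 and day 7, Pde4a and Pde8a fell in control and full-length NFIA cells, Pde4d in control and mutant cells, and Pde3b went up with full-length NFIA and down with the mutant. Of the 7 genes tested, 3 fell and none rose in control cells (21.7% of all genes fell and 17.9% rose). With full-length NFIA 3 fell and 1 rose (22.2% and 16.8%). With the mutant 2 fell and none rose (21.7% and 15.4%), and 4 were called by limma-voom or with a pseudocount of 0.1, with Pde4a and Pde8a in addition (18.3% higher and 26.9% lower among all genes by limma-voom). Of all genes called, 43.03% rose with full-length NFIA and 41.5% with the mutant, against 53.3% and 51.7% after median-ratio scaling. That scaling shifted the median of all genes by 0.12 with full-length NFIA. The median log2 change of the 7 genes was -0.37, -0.39 and -0.51 in control, full-length NFIA and mutant cells, and that of all genes -0.056, -0.11 and -0.11. The untreated samples at day 7 were from cells that had been exposed to the differentiation medium, so time and medium cannot be told apart. The myotube, adipocyte and proliferating cell markers differed between the days as well. The markers of proliferating cells were lower at day 7, at 22.4 to 23.9, 15.5 to 30.5 and 20.02 to 25.7 FPKM in control, full-length NFIA and mutant cells, against 107 to 109, 294 to 299.9 and 126 to 136 FPKM at day 0. The adipocyte markers were at 43.4 to 52.6, 437 to 464 and 323 to 339 FPKM at day 0 in the same order, and the part of these 3 lists in the results was not tested. Of 40 other genes of cAMP signalling, 14 rose and 12 fell in control cells, 10 and 13 with full-length NFIA, and 11 and 13 with the mutant, beside the shares of all genes given above.

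Pde8a had the largest fall of the 7 genes in control cells. It went from 10.1, 11.2 and 10.5 FPKM at day 0 to 3.94, 3.72 and 3.34 FPKM at day 7 (log2 change -1.31 ± 0.058 (SE), adjusted p = 2.46e-12). With full-length NFIA it went from 12.6, 13.1 and 13.2 to 4.48, 5.03 and 4.70 FPKM (log2 change -1.28 ± 0.058 (SE), adjusted p = 2.16e-12). With the mutant it was at 12.3, 13.3 and 12.7 and 8.24, 8.02 and 8.92 FPKM, a change of -0.55 ± 0.058 (adjusted p = 1.69e-07) that stayed within the limit and passed it without mutant day 7 replicate 3 (-0.59). No day 0 sample overlapped with a day 7 sample of its cell type.

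Pde3b rose with full-length NFIA by log2 change 1.64 ± 0.059 (SE), adjusted p = 9.71e-14, the gene of the 10 past 3-fold in that comparison (10.1% of all genes). With the mutant it fell by a ratio of day 0 to day 7 of 2.60 (log2 change -1.26 ± 0.059 (SE), adjusted p = 5.16e-12). In control cells the change was -0.36 ± 0.059 (adjusted p = 2.49e-05). Of the untreated groups, the mutant had the highest Pde3b at day 0 and full-length NFIA at day 7.

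The PDE4 genes were called in different cell types. Pde4a fell from 2.95, 3.17 and 3.24 to 1.40, 1.37 and 1.22 FPKM in control cells (log2 change -0.82 ± 0.088 (SE), adjusted p = 2.01e-07) and from 2.43, 2.44 and 3.10 to 1.14, 0.792 and 0.910 FPKM with full-length NFIA (log2 change -0.91 ± 0.088 (SE), adjusted p = 5.50e-08). With the mutant its change was -0.51 ± 0.088 (adjusted p = 4.96e-05). Pde4b fell with full-length NFIA (log2 change -1.23 ± 0.060 (SE), adjusted p = 6.08e-12), and its changes were 0.19 ± 0.060 in control cells and 0.022 ± 0.060 with the mutant. Pde4d fell from 6.70, 7.35 and 7.06 to 4.15, 4.41 and 3.96 FPKM in control cells (log2 change -0.64 ± 0.061 (SE), adjusted p = 4.51e-08) and from 5.74, 5.49 and 5.56 to 2.77, 2.54 and 2.62 FPKM with the mutant (log2 change -0.86 ± 0.061 (SE), adjusted p = 1.07e-09). With full-length NFIA, where it was at 4.67, 5.22 and 4.76 FPKM at day 0 and 4.12, 3.49 and 3.48 FPKM at day 7, the change was -0.33 ± 0.061 (adjusted p = 1.08e-04). For Pde7a the changes were -0.17 ± 0.060, -0.39 ± 0.060 and 0.36 ± 0.060 in control, full-length NFIA and mutant cells, and for Pde10a -0.37 ± 0.072, 0.26 ± 0.072 and 0.33 ± 0.072. That of Pde10a in control cells passed the limit with a pseudocount of 0.1 (-0.61) and by limma-voom (-0.65).

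**Figure D5:**
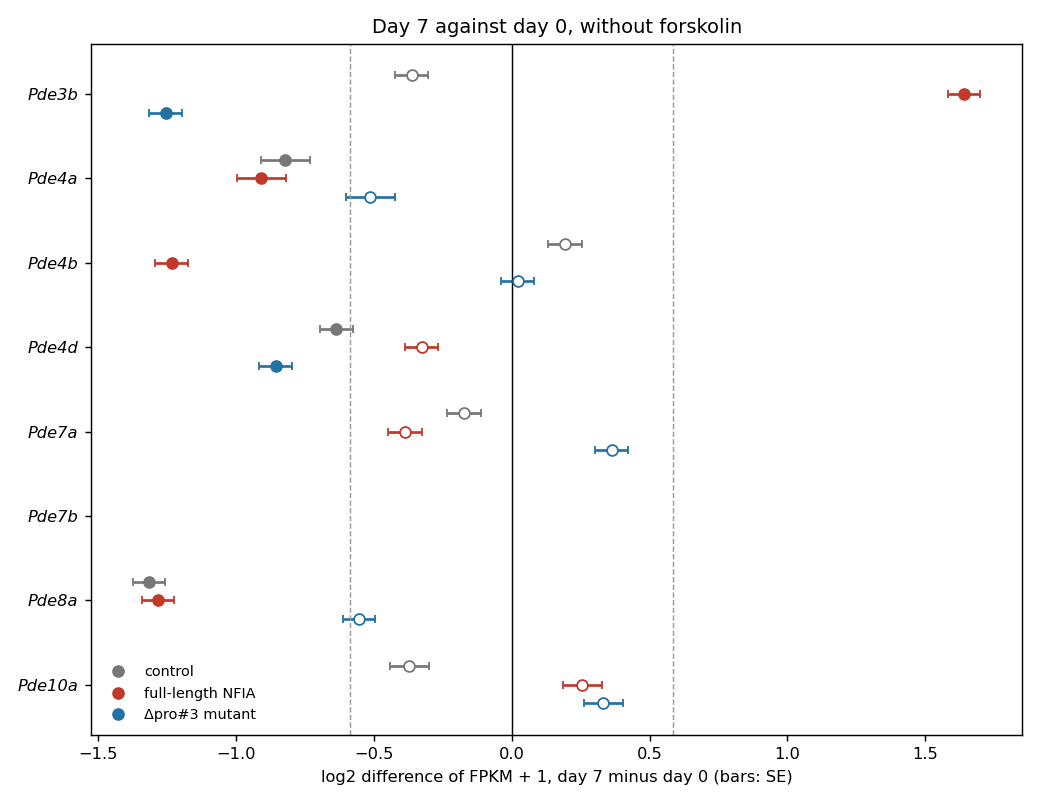
Log2 change of FPKM + 1 from day 0 to day 7 without forskolin by cell type (points the estimate of limma, bars its SE, filled where called, dashed lines the 1.5-fold limit). Pde3b lies at 1.64 with full-length NFIA and at -1.26 with the mutant, Pde8a at -1.31 and -1.28 in control and full-length NFIA cells, and Pde7b, with no point, was not tested.

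The effect of a construct against control cells was then compared between day 7 and day 0, in 1 fit of both days. For full-length NFIA, 2 of 7 genes had a higher and 1 a lower effect at day 7 (16.9% and 20.5% of all genes), and for the mutant 2 had a higher and 1 a lower one (7.82% and 6.98%). Of all genes called for full-length NFIA, 45.2% had a higher effect, and 52.6% after median-ratio scaling. Pde3b had a difference of 2.003 ± 0.083 (SE, adjusted p = 2.39e-12) for full-length NFIA, past 3-fold where 7.62% of all genes were, and of -0.89 ± 0.083 (adjusted p = 2.63e-07) for the mutant, opposite in sign. Pde4b had a difference of -1.43 ± 0.085 (adjusted p = 2.59e-10) for full-length NFIA. Its samples with full-length NFIA were above control cells at day 0 and below them at day 7. For the mutant, Pde8a had a difference of 0.76 ± 0.082 (adjusted p = 1.47e-06) and Pde10a of 0.70 ± 0.10 (adjusted p = 3.12e-05). Pde7a had one of 0.54 ± 0.085 (adjusted p = 8.11e-05), under the limit, and passed it with a pseudocount of 0.1 (0.62), with median-ratio scaling (0.59) and by limma-voom (0.62). For Pde10a with full-length NFIA it was 0.63 ± 0.10 (adjusted p = 3.44e-05), a call that was lost without control day 0 replicate 3 (0.58) or without NFIA day 7 replicate 3 (0.56).

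Pde7b, a cAMP-specific gene known from brain, had its highest levels in cells with full-length NFIA at day 7. It was at 0.107, 0.151 and 0.185 FPKM in control cells, 1.48, 1.34 and 1.24 FPKM with full-length NFIA and 0.160, 0.0825 and 0.0817 FPKM with the mutant at day 7, on between 8 and 152 fragments a sample. With forskolin it was at 0.494, 0.575 and 0.612, 1.34, 1.55 and 1.78 and 0.257, 0.0967 and 0.242 FPKM in the same order. Samples with full-length NFIA stood above all the others at both times. The gene passed the filter of a mean of 0.5 FPKM only through these samples, so a difference was built into its being tested, and leaving out any 1 of the 3 untreated samples with full-length NFIA took it below the filter at day 7. With that limit, the changes are given as a description, with no p. Against control cells they were 1.03 ± 0.084 (SE) at day 7 and 0.71 ± 0.094 with forskolin. The mutant against full-length NFIA gave -1.08 ± 0.084 and -1.09 ± 0.094. At day 0 no sample was above 0.141 FPKM, and the gene was not tested.

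Pde3a and Pde4c were below the filter in each fit and are given by their values alone. Pde3a, the PDE3 gene of heart and platelets, rested on 527 fragments over the 27 samples. With full-length NFIA it was at 0.418, 0.452 and 0.567 FPKM at day 0, 0.224, 0.369 and 0.229 FPKM at day 7 and 0.405, 0.584 and 0.641 FPKM with forskolin. In control cells it was at 0.0802, 0.227 and 0.118, 0.156, 0.382 and 0.325 and 0.357, 0.320 and 0.393 FPKM, so that full-length NFIA was above control cells at day 0 and with forskolin and overlapped with them at day 7. With the mutant it was at 0.0868, 0.0484 and 0.119 FPKM at day 0, 0.105, 0.0867 and 0.0806 FPKM at day 7 and 0.161, 0.0848 and 0.0562 FPKM with forskolin. The samples with the mutant were below all those with full-length NFIA at each time, and they overlapped with control cells at day 0 and were below them at day 7 and with forskolin. Pde4c, the rarest PDE4 gene in most tissues, rested on 61 fragments and was at 0 in 9 of the 27 samples. In control cells it had 0 of 77051420 fragments at day 0, which allows up to 3 fragments over the 3 samples (counting error only), and was at 0.0996, 0.108 and 0.0259 FPKM at day 7 and 0.0829, 0.147 and 0.191 FPKM with forskolin. With full-length NFIA it was at 0.0118, 0 and 0 FPKM at day 0, 0, 0.0295 and 0 FPKM at day 7 and 0.0207, 0.0173 and 0 FPKM with forskolin, and with the mutant at 0.0139, 0 and 0.0117, 0.0268, 0.138 and 0.0686 and 0.0205, 0.0180 and 0.0239 FPKM in the same order. With forskolin the control samples were above those of both other cell types, which overlapped, and at day 7 the 3 cell types overlapped, on at most 10 fragments a sample.

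Ordered by group mean, Pde3b ran from 47.8 FPKM with full-length NFIA and forskolin through 23.99 FPKM with full-length NFIA at day 7 down to 5.55 FPKM in control cells at day 7. Neighbours in this order overlapped in their samples between the mutant at day 0 and control cells with forskolin, and between control cells and full-length NFIA at day 0. Pde4b ran from 25.9 FPKM in control cells with forskolin to 2.62 FPKM with full-length NFIA at day 7. The groups with forskolin held the 3 highest places, with control and mutant samples overlapping, and below them the mutant at day 7, the mutant at day 0 and control cells at day 7 overlapped in turn. Pde4d also had its 3 highest means with forskolin, from 11.99 FPKM in control cells to 8.99 FPKM with full-length NFIA, and its lowest with the mutant at day 7, at 2.64 FPKM. The treated mutant and full-length NFIA samples overlapped, as did the untreated control and full-length NFIA samples at day 7. Pde7a ran from 8.05 FPKM in control cells at day 0 to 3.000 FPKM with full-length NFIA and forskolin, with overlaps between treated control cells and the mutant at day 7, and between the mutant at day 0 and with forskolin. Pde8a had its 3 highest means at day 0, from 12.96 to 10.6 FPKM, and its lowest, 3.67 FPKM, in control cells at day 7. Samples overlapped between full-length NFIA and the mutant at day 0, and between the mutant with and without forskolin at day 7. Treated samples of full-length NFIA and control cells overlapped too. Pde10a had its highest mean, 4.99 FPKM, with the mutant and forskolin and its lowest, 1.05 FPKM, in control cells at day 7. The latter overlapped with full-length NFIA at day 0, and treated full-length NFIA with the untreated mutant at day 7. Control cells at day 0 overlapped with treated control cells and with full-length NFIA at day 7.

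For the 3 genes with the widest range of group means, the genes of most similar pattern were sought among 11582 genes by Pearson's r of log2(FPKM + 1) over the 27 samples, which fall into groups and share their conditions. They are a description of likeness. Pde3b was most like Blcap (r = 0.910), Scd1 (0.900), a desaturase of fatty acid synthesis, and Dgat1 (0.886), which completes triglyceride synthesis. Pde4b was most like Il6 (0.951), a cytokine gene, Zfp948 (0.924) and Tnfsf11 (0.919), the gene of the cytokine RANKL. Pde4d was most like Bdkrb1 (0.866), a bradykinin receptor gene, 1700017B05Rik (0.830) and Cmip (0.823).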

How the data were processed

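Poly(A) RNA of 27 samples of C2C12 cells (9 groups of 3) was sequenced. The deposited values are FPKM per gene, which the authors made from reads aligned with STAR 2.5.3a to mm9, per the labels' processing notes and the study's methods. Reads that mapped to more than 1 place were dropped, the libraries were stranded and counting was per gene. The unit was checked by working the FPKM back to fragments, which came out whole to within 0.01 fragments for 100% of values and gave 9567769 to 27230965 fragments per sample. Symbols were used as deposited (2 are repeated). Samples were grouped by the labels. Log2(FPKM + 1) was tested with limma 3.58.1 (R 4.3.3, moderated variances with a trend) in genes with a mean of at least 0.5 FPKM over the samples of a fit. The 9 samples of a time point were fitted together for the comparisons of constructs, the 18 samples at day 7 for forskolin, and the 18 untreated samples for day 7 against day 0. P-values were adjusted by Benjamini-Hochberg over all genes tested, and called genes passed 0.05 and 1.5-fold. The study's 3-fold threshold was counted as well. The text gives every one of the 10 genes, at most the 3 genes of the pathway list with the largest called change per comparison, and the 3 most similar patterns for the 3 genes with the widest range. The members and the lists of pathway and marker genes were chosen with earlier results of these data known. Alternatives were a pseudocount of 0.1, no filter and one at 5 FPKM, median-ratio scaling, limma-voom on the fragments, variances without a trend, fits of 2 groups or of all 27 samples, the replicate number as a block, and each sample left out. The fit was tested on simulated data with known changes. Figures were drawn with Python 3.11.15 and matplotlib 3.10.9. Replicates of a group differed by more than counting noise in all 27 pairs. Motifs were searched in RefSeq promoter windows of GRCm38.p6.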

Additional observations from a re-analysis of the deposited data

Results flagged for a closer look

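The difference of a construct from control cells was compared between day 7 and day 0 by limma. It was called for 3 of 7 phosphodiesterase genes tested with full-length NFIA and for 3 of 7 with the mutant. Among all genes, 16.9% had a higher and 20.5% a lower effect at day 7 with full-length NFIA, and 7.82% and 6.98% with the mutant. The count with full-length NFIA is thus near the share of all genes and is not a trait of these genes. With full-length NFIA, Pde3b gave 2.003 ± 0.083 (log2, SE), going from no call at day 0 to higher than control cells at day 7. Pde4b gave -1.43 ± 0.085, with full-length NFIA above control cells at day 0, short of the limit, and below them at day 7. Pde10a gave 0.63 ± 0.10, which lay close to the 1.5-fold limit. With the Δpro#3 mutant, Pde3b gave -0.89 ± 0.083, being higher than in control cells at day 0 and not called at day 7, while Pde8a gave 0.76 ± 0.082 and Pde10a 0.70 ± 0.10, both called higher at day 7 and not at day 0. The myotube markers were lower with full-length NFIA than in control cells at both days. With the mutant they were lower at day 0 and overlapped at day 7. The mutant and control cells still differed at day 7 in adipocyte markers (639 to 2068 against 363 to 401 FPKM) and myoblast markers (958 to 1082 against 675 to 782 FPKM). The part of these lists in the differences was not tested.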

How the results depend on the processing

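Of 3305 values of single genes under an alternative, 3213 kept their direction and their side of the threshold, and 31 changed sign, none of them among the 49 called changes. Calls of 3 changes were lost under 6 alternatives, all named with their values above. Further calls were lost because the gene fell under a filter. These were 19 under the minimum of 5 FPKM, 4 of Pde7b in the fit of all 27 samples, and 2 of Pde7b at day 7 without any 1 of the 3 samples with full-length NFIA. Of uncalled changes, 22 gained a call under 55 alternatives. No filter, variances without a trend, the fit of all 27 samples and the fits of 2 groups changed no call of a gene tested in the reported fits, and without a filter Pde7b was called in addition for day 7 against day 0 with full-length NFIA (1.10) and in the shift of the NFIA effect between the days (0.93). The counts that moved by over 1.5 times, or from 0, follow. They describe the processing and have no share of all genes beside them here. With a pseudocount of 0.1 in place of 1, the number of genes called went from 0 to 1 with full-length NFIA at day 0, from 2 to 4 with the mutant at day 0, from 1 to 3 with the mutant under forskolin, from 3 to 7 for forskolin in control cells, from 0 to 1 in the difference in response of full-length NFIA and of the mutant from full-length NFIA, and from 2 to 4 for day 7 against day 0 with the mutant. Limma-voom gave 2, 4, 3, 7, 1, 1 and 4 in the same order. A minimum mean of 5 FPKM, under which fewer genes were tested, left 1 for the mutant against full-length NFIA at day 0, 2, 1 and 2 for full-length NFIA, the mutant and their difference at day 7, 2 and 0 for full-length NFIA and the mutant with forskolin, and 1 each for day 7 against day 0 in control and mutant cells. Median-ratio scaling gave 1 in the difference in response between the mutant and full-length NFIA. With 1 sample left out, among the counts that moved this far, the number called ranged from 0 to 1 with full-length NFIA at day 0, from 1 to 2 with the mutant under forskolin and from 0 to 1 in the difference in response between the mutant and full-length NFIA. Under these settings the other counts of members called changed by at most 1.

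Changes of sign were all in uncalled changes. Under scaling they were -0.078 for Pde4d, mutant against full-length NFIA with forskolin, and, in the difference in forskolin response, 0.044 for Pde7a and 0.05004 for Pde8a with full-length NFIA, and -0.077 for Pde3b between the mutant and full-length NFIA. In that last difference Pde7b was at 0.30 with a pseudocount of 0.1 and at 0.69 by limma-voom. With 1 sample left out, the changes in that difference were -0.077 to 0.052 for Pde3b, -0.12 to 0.034 for Pde4a and -0.072 to 0.052 for Pde7b. They were -0.016 to 0.14 for Pde4a in the difference of the mutant from control cells, and -0.041 to 0.046 for Pde7a and -0.10 to 0.064 for Pde8a in that of full-length NFIA. They were -0.041 to 0.10 for Pde4d, mutant against full-length NFIA with forskolin, -0.049 to 0.0049 for Pde8a at day 0, and -0.00073 to 0.11 for Pde8a under forskolin with the mutant. They were -0.000583 to 0.061 for Pde4b in the mutant between the days and -0.021 to 0.072 for Pde8a in the shift of the NFIA effect between the days.

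The replicate numbers were shared between groups, but samples of the same number did not deviate together (mean r between -0.036 and 0.018, lowest -0.19 and highest 0.35), so the numbers were not taken as pairs. In fits with a replicate block, the number of genes called stayed at 4 for full-length NFIA at day 7 and at 5 with forskolin. Both counts hold Pde7b, which was tested only through the samples with full-length NFIA. The number stayed at 3 for forskolin in control cells, and none of the 20 counts changed. Depth limited Pde4c, Pde3a and Pde7b, which rested on 61, 527 and 1061 fragments over all samples. The changes are on the log2(FPKM + 1) scale, which understates those of low genes such as Pde4a, Pde7b and Pde10a.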
